A study of Mus musculus with 192 samples.

Results

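Mouse dendritic cells were given Zymosan and cGAMP together, and the 3 libraries of this pair were set against the 3 with Zymosan alone and the 3 with cGAMP alone, 9 libraries chosen by their labels from a series of 64 groups of 3. RNA was counted with molecular identifiers in dendritic cells grown with GM-CSF (15 ng/mL) from the bone marrow of female C57BL/6J mice aged 6 to 8 weeks, with 100000 cells in a well and 6 hours of stimulation. The groups used are Zymosan (the label says zymosan depleted), cGAMP (3',3'-cGAMP), Zymosan_cGAMP, the control Ctrl, and HMW_Zymosan, HMW_cGAMP and HMW_Zymosan_cGAMP, with PAM_cGAMP and Zymosan_SeV beside them, each with 3 libraries. HMW, PAM and SeV are given as the labels spell them. The labels give no dose and do not say that replicates came from separate mice or cultures, so p-values measure only the spread between these samples, which may be technical.

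Zymosan is a preparation of yeast cell wall rich in beta-glucan, which dendritic cells bind through the lectin Dectin-1 (gene Clec7a), whose signal runs through Syk, Card9, Bcl10 and Malt1. cGAMP is a cyclic dinucleotide that binds the adaptor STING (gene Tmem173), which activates the kinase Tbk1 and the factor Irf3 and so the gene of interferon beta, whose product induces antiviral genes. In dendritic cells the first route is known for inflammatory cytokines and increased glycolysis, and the second for the interferon response.

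The 9 libraries held 98931 to 224413 counts and the Ctrl libraries 61823 to 89530. Dendritic cell markers summed to 3050 to 3920 CPM (counts scaled to equal library totals with edgeR's TMM factors) in the 12 libraries of these 4 groups, carried by H2-Ab1, Cd74, Csf2ra and Itgax. Flt3 had no counts with cGAMP and Zbtb46 none in Ctrl, and both were at 11.4 CPM or less on average elsewhere. The mean of Itgax, the integrin CD11c, was 537.3 CPM with Zymosan, 217.6 with cGAMP and 191.3 in the pair. T and NK cell markers summed to at most 5.84 CPM and B cell markers to at most 36.8 CPM, and neutrophil markers to 528 to 845 CPM in the 4 groups. Macrophage markers, 5 of 6 in the file, summed to 552 to 709 CPM with Zymosan, 1310 to 1490 with cGAMP, 898 to 1290 in the pair and 1020 to 1080 in Ctrl, where Mertk had no counts. Plasmacytoid markers summed to 12.8 to 27.6 CPM with Zymosan, 129 to 178 with cGAMP and 114 to 155 in the pair, nearly all from Tcf4, with Siglech at 0 in these 3 groups. The part of these markers in the results was not tested. In such bulk libraries, fewer cells of a type and less RNA per cell cannot be told apart.

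A gene was called where the adjusted p of edgeR's quasi-likelihood test was under 0.05 and the log2 fold change was at least 1 in size. Among 4720 genes tested, the pair was higher than Zymosan for 605 genes (12.8%) and lower for 324 (6.86%), 19.7% in either direction. It was higher than cGAMP for 148 genes (3.14%) and lower for 37 (0.784%), 3.92% in either direction, and without Zymosan_cGAMP replicate 2 the 37 were 21. Scaling by library size alone turned the split against Zymosan to 487 higher and 565 lower. A gene was called above or below both singles where the larger of both p-values, adjusted over all genes, was under 0.05 and the log2 fold change was at least 1 over each. There were 33 genes above both (0.699%) and 4 below both (0.0847%), and without the fold threshold 64 (1.36%) and 10 (0.212%).

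**Figure D1:**
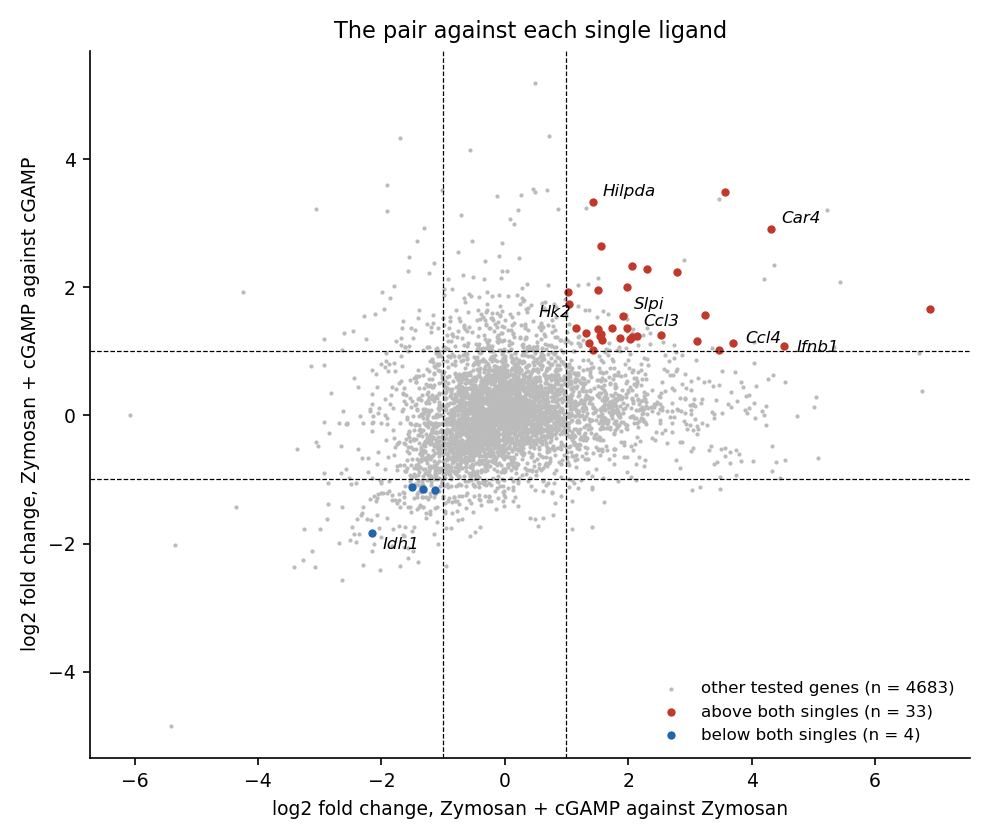
Log2 fold change of Zymosan_cGAMP against Zymosan (horizontal axis) and against cGAMP (vertical axis), one point for each of 4720 tested genes, with the 33 genes above both singles and the 4 below both in colour. More genes were called along the horizontal axis (929) than along the vertical axis (185).

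Promoters of 3 genes are shown because each holds the letters of the interferon-stimulated response element, bound by interferon regulatory factors, while the genes took different places: Ifit1 stood in the pair at the level of cGAMP alone, and Edn1 and Ppp1r15a rose above both singles. The sequences are from RefSeq (GRCm38.p6), 250 bases before to 50 after the start of the gene, 5′ to 3′ on the strand of the gene, with matches to the element's core, which is GAAA, any 2 bases and GAAA, on either strand in capitals. Ifit1 lies on the plus strand at chr19:34640639-34640938, Edn1 on the plus strand at chr13:42301226-42301525 and Ppp1r15a on the minus strand at chr7:45526219-45526518.
Ifit1: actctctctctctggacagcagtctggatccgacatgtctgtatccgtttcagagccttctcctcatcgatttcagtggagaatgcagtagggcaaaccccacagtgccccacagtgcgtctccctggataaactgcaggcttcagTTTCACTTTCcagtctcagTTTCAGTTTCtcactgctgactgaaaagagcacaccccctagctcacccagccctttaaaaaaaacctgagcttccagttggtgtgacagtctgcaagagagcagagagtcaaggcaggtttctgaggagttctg
Edn1: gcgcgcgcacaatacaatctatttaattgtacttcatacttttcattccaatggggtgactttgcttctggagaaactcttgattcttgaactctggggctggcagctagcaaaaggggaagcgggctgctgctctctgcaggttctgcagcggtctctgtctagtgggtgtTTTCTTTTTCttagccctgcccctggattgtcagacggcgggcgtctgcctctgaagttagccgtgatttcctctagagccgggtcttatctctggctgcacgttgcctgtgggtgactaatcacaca
Ppp1r15a: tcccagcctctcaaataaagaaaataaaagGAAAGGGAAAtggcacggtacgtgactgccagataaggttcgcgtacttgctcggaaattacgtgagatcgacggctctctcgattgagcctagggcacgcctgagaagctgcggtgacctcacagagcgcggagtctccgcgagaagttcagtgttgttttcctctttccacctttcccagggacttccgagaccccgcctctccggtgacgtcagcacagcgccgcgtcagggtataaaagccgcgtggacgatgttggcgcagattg
Of the 33 genes above both singles, 25 had a promoter in the table, and Armcx3, Car13, Car2, Ccl4, Hbegf, Htra4, Lrrc32 and Sbds had none. The motif was in 2 of the 25 (8.0%), Edn1 and Ppp1r15a, beside 5.09% of the 3614 tested genes with a promoter and 3.99% of all 27025 genes in the table. The 2 genes are too few to set this share apart from that of tested genes. Of the genes higher with cGAMP than with Zymosan whose pair level lay nearer cGAMP, 46 of 225 held it (20.4%). Ifit1 is an example that holds it, while Oasl1 and Cxcl9, also not called against cGAMP, held no match in this window. A kappa B-like motif, which is GGGA, any base and TTTCC, searched on both strands, was in 0 of the 25, in 0.747% of tested genes and in 0.466% of all genes in the table. A match describes letters in this window and is not a site, and no match says only that these letters are not there.

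The genes above both singles included chemokines and a cytokine. Ccl4, which attracts T cells and monocytes, was at 19990, 18320 and 21820 CPM in the pair, 9133, 8981 and 9421 with cGAMP and 1675, 1561 and 1432 with Zymosan. The pair was higher by a log2 fold change of 1.13 over cGAMP (SE 0.15, adjusted p = 2.99e-10) and 3.70 over Zymosan (SE 0.17, adjusted p = 6.45e-53). Every pair library was far above every single library, and the call was lost only with scaling by library size alone, at a smaller fold change of 0.99. Ccl3, a near relative, was at 5861, 5684 and 5919 CPM in the pair, 2751, 2542 and 2160 with cGAMP, 1454, 1337 and 1208 with Zymosan and 509 to 674 in Ctrl. Its log2 fold change was 1.23 over cGAMP (SE 0.15, adjusted p = 3.32e-12) and 2.14 over Zymosan (SE 0.16). The groups followed the order Ctrl, Zymosan, cGAMP, pair without overlap.

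Ifnb1, the gene of interferon beta, was at 482, 288 and 440.4 CPM in the pair, 266, 210.4 and 111 with cGAMP, 0, 32.0 and 14 with Zymosan and 9.60 to 13.9 in Ctrl. The pair was higher by 1.09 over cGAMP on the log2 scale (SE 0.26, adjusted p = 0.00136) and by 4.53 over Zymosan (SE 0.41). The lowest pair library, replicate 2, was just above the highest cGAMP library, replicate 1. Without cGAMP replicate 3, the lowest of its group, the smaller fold change was 0.77 and the call was lost (adjusted p = 0.228). It was also lost without Zymosan_cGAMP replicate 1 and without replicate 3, and in 6 of 18 alternatives in all.

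Other secreted or cleaved products were also above both. Slpi, an inhibitor of neutrophil proteases, was at 767, 621 and 692 CPM in the pair, 220.1, 251 and 227 with cGAMP and 212, 160 and 182 with Zymosan, 1.56 over cGAMP (SE 0.23, adjusted p = 3.17e-08) and 1.92 over Zymosan (SE 0.24). Hbegf, a growth factor for the EGF receptor, was at 212, 237 and 232 CPM in the pair, 45.9 to 70.1 with cGAMP and 70.0 to 96.0 with Zymosan, 1.51 over the nearer single, Zymosan (SE 0.32). Edn1, the precursor of the vasoconstrictor endothelin, was at 196, 205 and 247 CPM in the pair and 27.6 to 70.0 CPM in the 6 single libraries, 2.07 over Zymosan (SE 0.40). For these genes the singles lay close to each other and the pair clearly above. Furin, a protease that cleaves precursor proteins, was at 327, 327 and 363 CPM in the pair, 111 to 169 with cGAMP and 46.0 to 63.99 with Zymosan, which was near Ctrl (55.4 to 76.8). Htra4, a secreted protease, was at 237, 198 and 232 CPM in the pair, 128, 76.0 and 36.8 with cGAMP and 18.4 to 25.6 with Zymosan. Its cGAMP libraries were spread widely, and its call was lost in 3 of 18 alternatives.

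Of the 18 tested genes of the glycolysis and hypoxia list, 1 was above both singles, Hk2. It is given here with Hilpda and other enzymes among the 33, picked after their values were seen. Hilpda, a lipid droplet protein induced under low oxygen, was at 808, 512 and 678 CPM in the pair, 285, 249.6 and 219 with Zymosan and 36.7, 87.7 and 61.4 with cGAMP. The pair was higher by 1.42 over Zymosan (SE 0.26, adjusted p = 2.48e-06) and 3.33 over cGAMP (SE 0.34). Hk2, a hexokinase that starts glycolysis, was at 645, 743 and 557 CPM in the pair, 359, 243 and 279.9 with Zymosan and 257, 239.6 and 252 with cGAMP, 1.16 over Zymosan (SE 0.18) and 1.37 over cGAMP (SE 0.18). Neither gene had a pair library within the range of a single, and Hk2 lost its call only with library size alone. Pfkp, a phosphofructokinase, was at 318, 448 and 382 CPM in the pair and 112 to 165 CPM in the 6 single libraries. Hk1, another hexokinase, had a mean of 215 ± 33.5 (SD, n = 3) CPM in the pair against libraries at 96.0 to 110.4 with Zymosan and 45.9 to 73.7 with cGAMP, and lost its call in 11 of 18 alternatives. Car2, Car4 and Car13 encode carbonic anhydrases, which interconvert carbon dioxide and bicarbonate, and all 3 were called. Car2 was at 310.2, 96.0 and 174 CPM in the pair, 92.0, 32.0 and 70.0 with Zymosan and 9.17, 35.1 and 36.8 with cGAMP, so that replicate 2 of the pair was just above replicate 1 of Zymosan, and its call was lost without Zymosan_cGAMP replicate 1. Car13 was at 155, 141 and 218 CPM in the pair and 46.7 to 70.1 CPM in the 6 single libraries. Car4 was at 65.3, 44.8 and 58.1 CPM in the pair and 0 to 11.7 CPM in the singles, with 27 counts in the pair, 1 with Zymosan and 3 with cGAMP, a ratio to cGAMP of 8.22 (counting interval 2.53 to 42.3). Car4 lost its call in 3 of 16 alternatives, and Car2 and Car13 in 3 of 18 each.

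The remaining genes had other functions. Ppp1r15a, which reverses the stress-induced block of translation, was at 237, 288 and 232 CPM in the pair and 64.2 to 117 CPM in the 6 single libraries, 1.28 over cGAMP (SE 0.27). AA467197 was at 2294, 2304 and 2507 CPM in the pair, 958 to 1117 with cGAMP and 625 to 718 with Zymosan. Basp1, a membrane-bound protein, was at 1086, 1037 and 987 CPM in the pair, 476 to 552 with Zymosan and 209 to 333 with cGAMP. All 3 were high in every pair library, though Basp1 lost its call in 5 of 18 alternatives. A630072M18Rik was at 155, 218 and 194 CPM in the pair and 18.7 to 64.4 CPM in the 6 single libraries, 2.29 over cGAMP (SE 0.35). Arl4c, a small GTPase, was at 171, 134 and 208 CPM in the pair and 9.20 to 60.7 CPM in the 6 single libraries. Armcx3 was at 89.8, 198 and 111 CPM in the pair and 19.2 to 61.4 CPM in the singles, and its call was lost in 7 of 18 alternatives. Larp1b was at 98.0, 64.01 and 72.6 CPM in the pair and 4.67 to 23.4 CPM in the singles, resting on 37 counts in the pair, 5 with Zymosan and 7 with cGAMP. Clic5, with 16 counts in the pair and 1 in each single, was the 1 gene under 50 CPM in every group. Clic5 lost its call in 8 of 16 alternatives and Larp1b in 5 of 16. Intu was at 98.0, 83.2 and 82.3 CPM in the pair and 27.5, 29.2 and 24.6 with cGAMP, with 0 counts with Zymosan and 42 in the pair, at least 13.8-fold higher at a floor of 3 counts over the group, but its log2 fold change of 1.66 over cGAMP lost the call in 16 of 18 alternatives. Lrrc32, Zc3hav1, Stx11, St3gal5, Phlpp1, Csrnp1, Sbds, Acap2 and Upp1 complete the 33. Of these, Acap2 lost its call in 17 of 18 alternatives, Phlpp1 in 13, Upp1 in 10, Sbds in 7, Stx11 and Csrnp1 in 6 each, Zc3hav1 in 4, Lrrc32 in 2 and St3gal5 in 1.

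**Figure D2:**
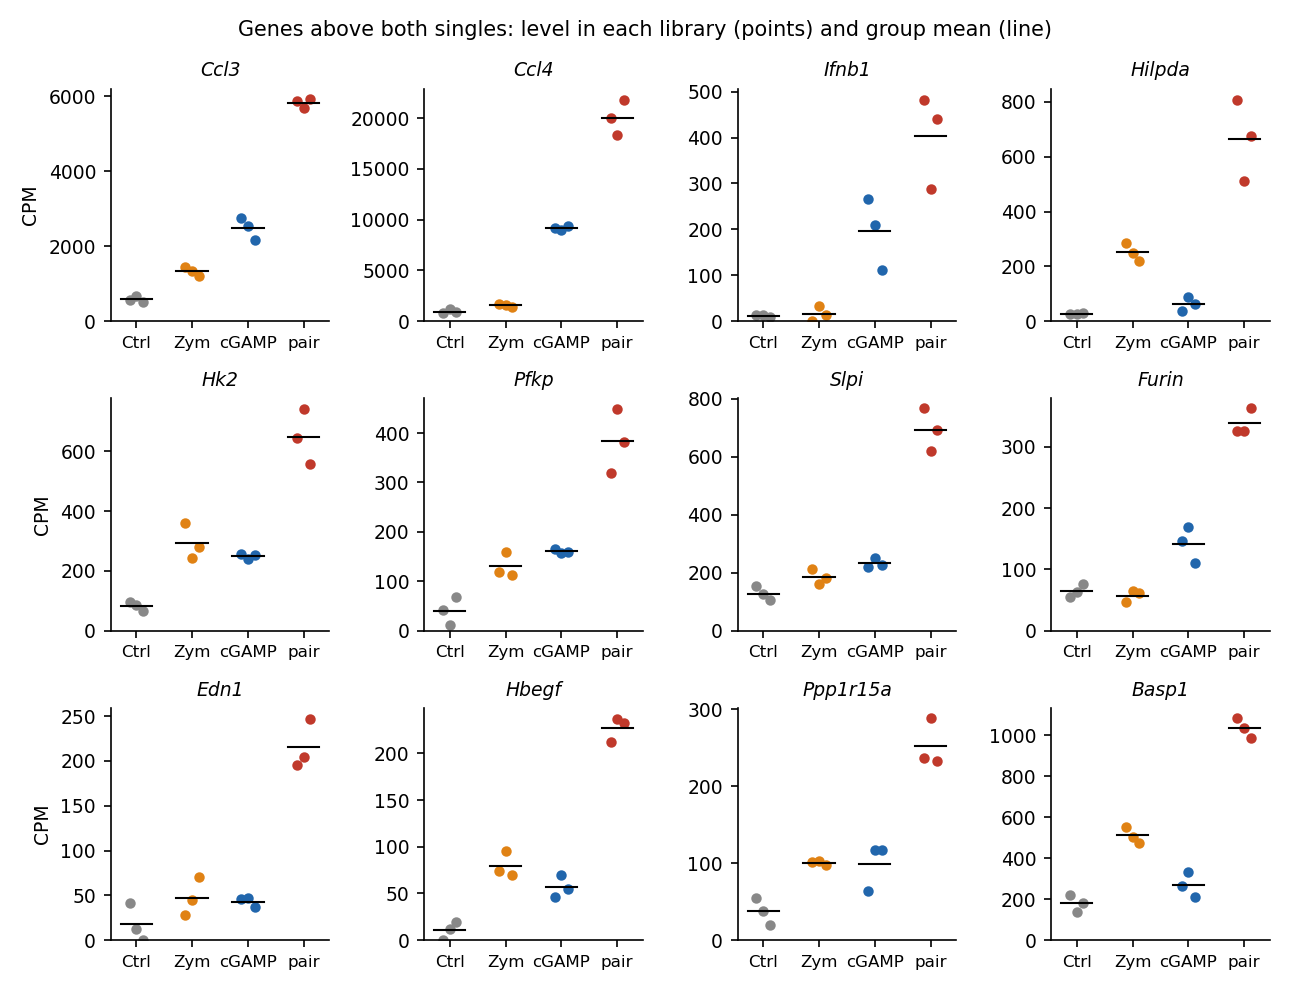
Level in CPM (vertical axis, from 0 for each gene) of 12 genes called above both singles, picked for display after their values were seen, in each library (points) with the group mean (line), by group (horizontal axis). The 3 pair libraries lie above the 6 single libraries in every panel, most narrowly for Ifnb1.

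For all 33 genes the 3 pair libraries lay above all 6 single libraries, as for 247 of all tested genes (5.23%), and the rule itself favours this. The call was kept in every alternative run by 11 genes (A630072M18Rik, Edn1, Arl4c, Slpi, Hbegf, Hilpda, Ppp1r15a, Pfkp, Furin, Ccl3 and AA467197) and lost in at least 1 by the other 22. Without Zymosan_cGAMP replicate 3 the count fell to 19, with DESeq2 to 17 and with libraries thinned to equal totals to 15. Against Ctrl, 4.43% of all genes were called higher with Zymosan, 11.7% with cGAMP and 16% in the pair, and of the 33, 7 were raised by both singles, 4 only by Zymosan, 6 only by cGAMP and 16 by neither. The interaction (pair minus both singles plus Ctrl, on the log2 scale, adjusted p under 0.05) was positive for 0.169% of all genes and negative for 0.911%, and of the 33 it was positive for 1, St3gal5 (457, 295 and 281 CPM in the pair, 74.6 to 92.0 with Zymosan and 110 to 166 with cGAMP), and negative for 0.

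Just outside the fold threshold were Tnf, with a smaller log2 fold change of 0.9985 (adjusted p = 2.95e-07), Gadd45b with 0.9903 and Il1rn with 0.9389. Tnf, the main early inflammatory cytokine, was at 10700, 9980 and 11490 CPM in the pair, 5494, 5420 and 5206 with Zymosan and 3796, 3447 and 3363 with cGAMP. Il1rn, the antagonist of the interleukin 1 receptor, was at 6139, 5704 and 6175 CPM in the pair, 2848 to 3294 with Zymosan and 1975 to 2136 with cGAMP. Both genes were higher in every pair library than in any single library. Nos2, the inducible nitric oxide synthase, was called over each single (2.90 over Zymosan, 2.42 over cGAMP) but not by the joint rule (adjusted p = 0.0527), with 25 counts in the pair, 3 with Zymosan and 4 with cGAMP. Its call against cGAMP was lost in 6 of 13 alternatives.

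Below both singles were Idh1, Nadk, Serbp1 and Tnip3. Idh1, the cytosolic isocitrate dehydrogenase that makes NADPH, was at 32.7, 19.2 and 29.0 CPM in the pair, 101, 87.7 and 104 with cGAMP, 156, 109 and 112 with Zymosan and 212 to 263 in Ctrl. The log2 change was -1.83 from cGAMP (SE 0.50, adjusted p = 0.00942) and -2.16 from Zymosan (SE 0.47). Nadk, the kinase that makes NADP, was at 65.3, 70.4 and 67.8 CPM in the pair and 119.6 to 243 CPM in the 6 single libraries. Pair and single libraries did not overlap for either gene. Serbp1, an mRNA-binding protein, was at 65.3, 70.4 and 92.0 CPM in the pair and 138 to 221 CPM in the singles. Tnip3, which binds the NF-kB inhibitor A20, was at 81.6, 70.4 and 53.2 CPM in the pair, 110 to 187 with cGAMP and 168 to 212 with Zymosan. These were also without overlap, and none of the 4 calls held in every alternative: Idh1 lost it in 4 of 18, among them without Zymosan_cGAMP replicate 2 or 3 and without cGAMP replicate 3, Serbp1 in 6, Tnip3 in 8 and Nadk in 9. Without cGAMP replicate 3 only 1 gene was below both.

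The same addition with HMW present used 9 libraries that the comparison above did not. HMW_Zymosan_cGAMP was above both HMW_Zymosan and HMW_cGAMP for 21 genes (0.445%) and below both for 1 (0.0212%). All 33 genes above both singles had a mean with HMW_Zymosan_cGAMP above both HMW pairs (30.3% of all tested genes), 27 had libraries that did not overlap those of the HMW pairs (5.23%), and 14 were called, 42.4% of the 33 and 66.7% of the 21. The median of the smaller log2 fold change over these genes was 1.26 without HMW and 1.02 with it, and over all tested genes -0.253 with it. Ccl4 was at 18270, 18300 and 20010 CPM with all 3 ligands, 8403 to 9000 with HMW_cGAMP and 2284 to 2868 with HMW_Zymosan. Ifnb1 was at 405, 484 and 517 CPM with all 3 ligands, 149.6, 207 and 158 with HMW_cGAMP and 0 to 14.6 with HMW_Zymosan, a smaller log2 fold change of 1.43 (adjusted p = 8.4e-06). Here the Ifnb1 groups stood well apart. Slpi was at 786, 751 and 663 CPM against 246 to 342 CPM in the 6 HMW pair libraries. Hilpda was at 513, 639.7 and 756 CPM against 303 to 343 with HMW_Zymosan. Hk2 was at 472, 506 and 564 CPM against 260.1 to 325 CPM, and its smaller log2 fold change of 0.77 was under the threshold, as was that of Pfkp (0.64). Of the 4 genes below both singles, 3 had a mean below both HMW pairs (32.2% of all tested genes) and 1 was called, Idh1, at 41.4, 33.4 and 13.3 CPM against 87.6 to 121 CPM. Serbp1 was at 92.9 to 215 CPM against 134 to 209.8 CPM, with overlap. Without HMW_Zymosan_cGAMP replicate 1 the count above both HMW pairs was 12, and with library size alone it was 8.

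**Figure D3:**
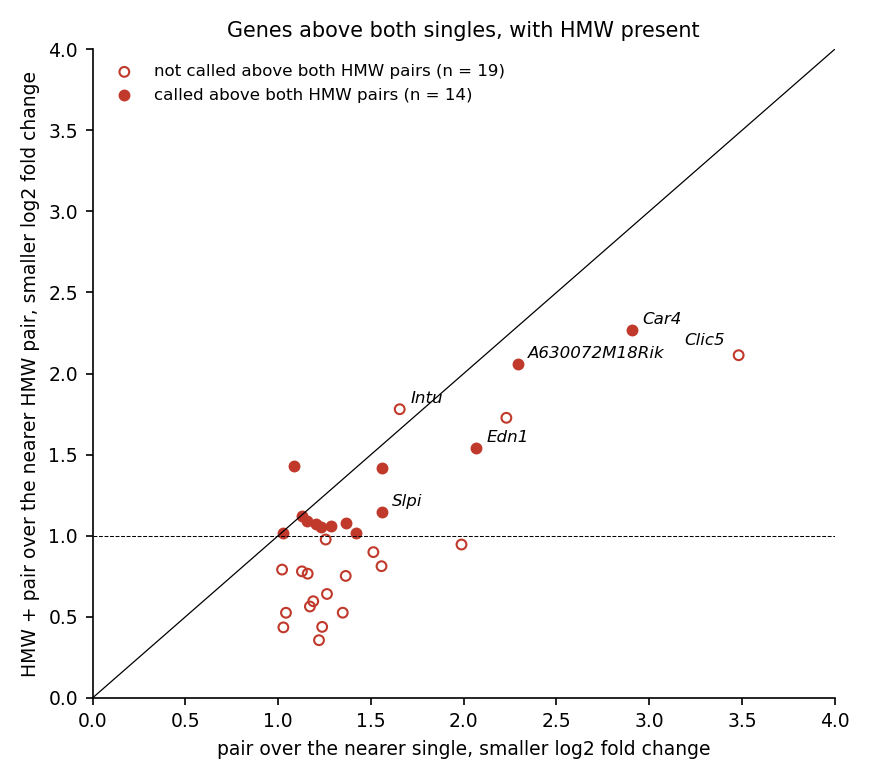
Smaller of both log2 fold changes of Zymosan_cGAMP over its singles (horizontal axis) and of HMW_Zymosan_cGAMP over HMW_Zymosan and HMW_cGAMP (vertical axis) for the 33 genes above both singles. All lie above 0 on the vertical axis, and 17 reach a log2 fold change of at least 1 there.

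The pairs PAM_cGAMP and Zymosan_SeV are given as a description, since the same Zymosan_cGAMP libraries chose the genes and these pairs share the libraries with cGAMP alone or with Zymosan alone. Of the 33, 10 were called higher in Zymosan_cGAMP than in PAM_cGAMP (3.16% of all genes) and 2 lower (3.41%), and 21 higher than in Zymosan_SeV (2.5%) and 0 lower (0.975%). These calls compare levels between pairs. They do not say whether a gene also rose above both singles of the other pair, so the trait is not shown to be particular to Zymosan_cGAMP. Zymosan_SeV replicate 2 held only 46564 counts. The 2 lower than in PAM_cGAMP were Ccl3, at 14540 to 16040 CPM there, and Edn1, at 485 to 649 CPM. Hbegf was at 26.5 to 68.4 CPM in PAM_cGAMP, Hilpda at 157 to 265 CPM and Car2 at 26.5 to 41.0 CPM, each below all libraries of Zymosan_cGAMP. Ccl4 was at 19920 to 24520 CPM in PAM_cGAMP, which overlapped Zymosan_cGAMP, and at 3817 to 5011 CPM in Zymosan_SeV, which did not.

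Which single the pair resembled was read from the 998 genes (21.1%) that differed between the singles, 581 higher with cGAMP (12.3%) and 417 higher with Zymosan (8.83%). The pair was tested against the midpoint of both singles on the log2 scale (adjusted p under 0.05, no fold threshold). By this contrast 12.3% of all tested genes lay above the midpoint and 3.33% below. Its weights are orthogonal to those of the contrast that chose the genes. The estimates are independent only where both singles are equally precise, which was not tested and need not hold at low counts. Of the 581 genes higher with cGAMP, 314 lay nearer cGAMP, 0 nearer Zymosan, and 267 were not called off the midpoint. Of the 417 genes higher with Zymosan, 41 lay nearer Zymosan, 24 nearer cGAMP, and 352 were not called off the midpoint. With library size alone this balance turned, to 29 nearer Zymosan and 56 nearer cGAMP, and relative to the median it was 25 and 41. On a scale with the Zymosan level at 0 and the cGAMP level at 1, the median position of the pair was 0.954 in the first set (interquartile range 0.765 to 1.09) and 0.564 in the second (0.31 to 0.821). So the middle gene of the first set stood close to the cGAMP level, and that of the second near the midpoint. Many genes of the second set were not called as raised by Zymosan over Ctrl. Of the 352 not off the midpoint, 173 were called against Ctrl for neither single, 113 were lower only with cGAMP and 55 higher only with Zymosan. Of the 41 nearer Zymosan, 27 were higher only with Zymosan. Of the 24 nearer cGAMP, 10 were lower only with cGAMP. In the first set, 245 of the 314 were higher only with cGAMP. Of the first set, 439 genes were called against Zymosan only, 11 against cGAMP only, 9 against both and 122 against neither. Of the second, 161 were called against Zymosan only, 70 against cGAMP only, 14 against both and 172 against neither. The sum of both levels on the linear scale also lies on the side of the higher single. With only the groups compared in the fit, 2 genes of the first set lay nearer Zymosan, and without Zymosan_cGAMP replicate 3 the 24 were 12.

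**Figure D4:**
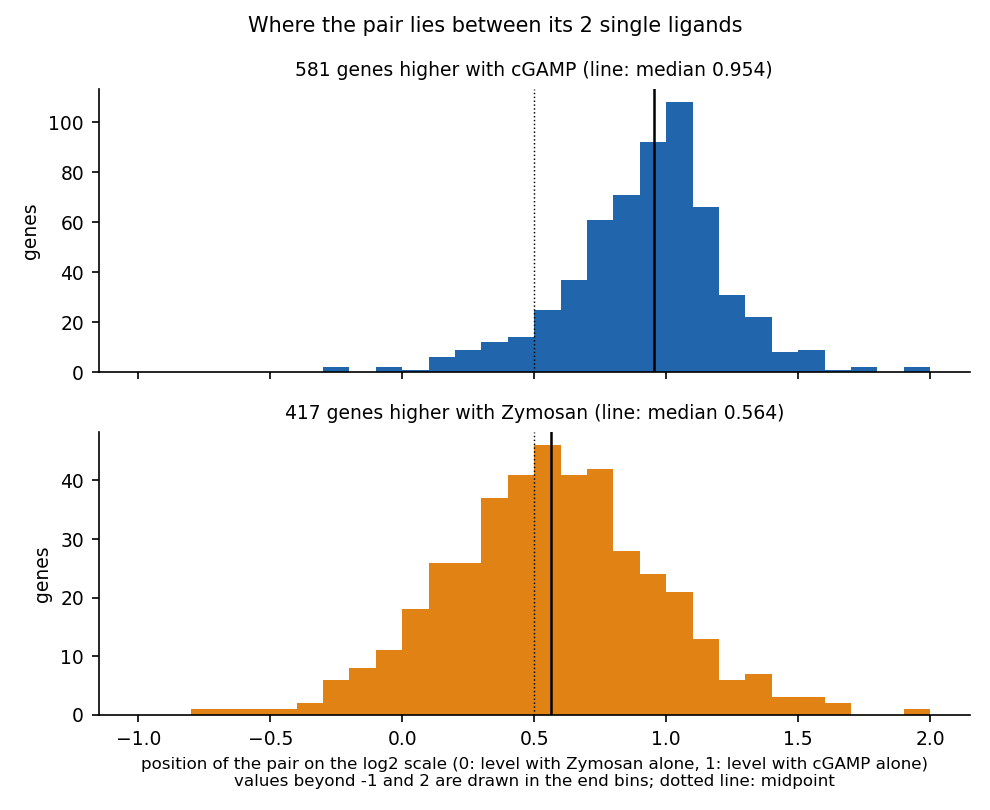
Position of the pair between its singles on the log2 scale (horizontal axis, the Zymosan level at 0 and the cGAMP level at 1) against the number of genes (vertical axis), for 581 genes higher with cGAMP and 417 higher with Zymosan. The first set is centred at 0.954 and the second, which is wider, at 0.564.

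Among genes at the cGAMP level, the interferon response list was uniform in its calls. All 15 members were higher in the pair than with Zymosan (12.8% of all genes; median log2 fold change 3.40, all genes -0.09), 0 were called against cGAMP (3.92% of all genes; median 0.03, all genes 0.01) and all 15 lay nearer cGAMP. Ifit1, which binds viral RNA and whose promoter is printed above, was at 5453, 5646 and 5628 CPM in the pair, 5071, 5440 and 5825 with cGAMP and 349.7, 569.5 and 209.9 with Zymosan. Oasl1, a regulator of the antiviral response, was at 2898, 3181 and 2947 CPM in the pair, 3053, 2565 and 2651 with cGAMP and 73.6, 147 and 60.7 with Zymosan, 5.02 over Zymosan (SE 0.27). Irf7, the factor that amplifies interferon genes, was at 1445, 1415 and 1423 CPM in the pair, 1458, 1560 and 1356 with cGAMP and 285, 269 and 149 with Zymosan. For these 3 genes the pair overlapped cGAMP and stood apart from Zymosan. Rsad2, the antiviral enzyme viperin, was at 13440 to 13990 CPM in the pair and 11060 to 12090 with cGAMP, not called (0.23, adjusted p = 0.428). Cxcl10, a T cell chemokine, was at 7135, 7464 and 7361 CPM in the pair and 10900, 11030 and 11370 with cGAMP, a log2 change of -0.60 (SE 0.16, adjusted p = 0.00894) that is under the fold threshold, with no overlap. Mx1 lay in the same direction, at 3600 to 3962 CPM against 4640 to 5456 (-0.43), and Isg15 in the other, at 1728 to 2204 CPM against 1215 to 1476 (0.54). Within the Zymosan group replicate 2 was the highest library for Ifit1, Oasl1, Rsad2, Mx1 and Cxcl10 (497, 781 and 331 CPM).

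Among the 8 largest rises over Zymosan were Intu and Ifnb1, described above as above both singles, and Oasl1. Cxcl9, another of the 8, a chemokine induced by interferons, was at 555, 563 and 615 CPM in the pair, 422, 456 and 540.1 with cGAMP and 4.67 to 36.8 with Zymosan. Pou3f1, a transcription factor, and Armcx6 had 0 counts with Zymosan, and each was at least 12.5-fold higher in the pair at the floor of 3 counts over the group. I830012O16Rik was at 359, 391 and 378 CPM in the pair, 697, 625 and 485 with cGAMP and at most 19.2 CPM with Zymosan. Serpina3f, a serine protease inhibitor, had a mean of 182 ± 31.7 (SD, n = 3) CPM in the pair and was at 174, 123 and 264 with cGAMP, and had 3 counts with Zymosan, a ratio of 30.0 (counting interval 9.93 to 148). Pou3f1, Armcx6 and Serpina3f overlapped with cGAMP, and I830012O16Rik was below it without passing the fold threshold (-0.66).

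Costimulation and cell death genes are set beside the share of all genes called higher than with Zymosan (12.8%), lower (6.86%) and in either direction against cGAMP (3.92%), at which under 1 member of each list would be called against cGAMP. Of 12 tested costimulation and maturation genes, 5 were higher than with Zymosan (Cd40, Cd86, Cd274, Il15 and Il15ra; median 0.73) and Marcks was lower, and 0 were called against cGAMP (median 0.14). Cd40, which receives T cell help, was at 571, 519 and 465 CPM in the pair, 550.2, 555 and 479 with cGAMP and 129, 134 and 103 with Zymosan. Cd86, a ligand of CD28, was at 645, 525 and 499 CPM in the pair, 431, 397 and 381 with cGAMP and 55.2, 51.2 and 51.3 with Zymosan. Cd40 overlapped with cGAMP, while Cd86 lay above it by less than the threshold (0.46, adjusted p = 0.211). Of 11 tested cell death genes, 8 were higher than with Zymosan (among them Tnfsf10, Daxx, Casp1, Casp4, Casp8, Mlkl and Gsdmd; median 1.33) and 0 lower (Fas with library size alone), and 0 were called against cGAMP (median 0.10). Mlkl, which ruptures the membrane in necroptosis, had a mean of 198 ± 12.7 (SD, n = 3) CPM in the pair and was at 202, 129 and 123 CPM with cGAMP and 18.4, 32.0 and 23.3 with Zymosan. Of 8 tested genes of MHC class II presentation, 0 were called against either single. H2-Ab1 was at 1524 to 1578 CPM in the pair and 1414 to 1758 CPM in the 6 single libraries.

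Of 18 tested genes of glycolysis and hypoxia, 11 were higher than with cGAMP (3.14% of all genes; Slc2a1, Hk2, Pfkl, Tpi1, Gapdh, Pgk1, Pgam1, Ldha, Slc16a3, Vegfa and Bnip3; median 1.38) and 0 lower, while against Zymosan 1 was higher (Hk2) and 1 lower (Egln3, whose libraries overlapped; median -0.09), beside 12.8% and 6.86% of all genes. All 18 had a positive midpoint value, as had 2391 of the 4720 genes, and 11 were called there (12.3% of all genes). With library size alone the calls of Hk2 against Zymosan and Gapdh against cGAMP were lost. Against Ctrl, the list median was 1.02 with Zymosan, -0.523 with cGAMP and 1.08 in the pair. With cGAMP alone, Slc2a1 and Vegfa were called lower than Ctrl and Hk2 and P4ha1 higher. The values over cGAMP thus also hold the difference of cGAMP from Ctrl. Slc2a1, the glucose transporter Glut1, was at 474, 627 and 503 CPM in the pair, 579.7, 538 and 471 with Zymosan and 174, 93.5 and 85.9 with cGAMP, 2.26 over cGAMP (SE 0.26, adjusted p = 4.16e-13). Pgk1, an ATP-making step of glycolysis, was at 1453, 1479 and 1413 CPM in the pair, 1675, 1446 and 1763 with Zymosan and 523, 538 and 669 with cGAMP. Slc16a3, a lactate exporter, was at 237, 237 and 348 CPM in the pair, 258, 326 and 308 with Zymosan and 55.0, 64.3 and 30.7 with cGAMP. For these 3 genes the pair overlapped Zymosan and stood apart from cGAMP. Ldha, which makes lactate, was at 3061, 3342 and 3838 CPM in the pair, 2172, 2220 and 2421 with Zymosan and 1440, 1414 and 1651 with cGAMP, above all 6 single libraries but only 0.59 over Zymosan. Bnip3, a mitochondrial protein induced under low oxygen, was at 114, 109 and 111 CPM in the pair, 55.2, 83.2 and 65.3 with Zymosan and 0, 0 and 24.6 with cGAMP, and lay nearer Zymosan.

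Further genes with a large rise over cGAMP were Inhba, Ak4, Gm7120, Eif4ebp1, Gem and Vasn. Inhba, a subunit of activin, was at 465, 455 and 426 CPM in the pair, 258, 275 and 215 with Zymosan and 64.2, 58.4 and 24.6 with cGAMP, 3.21 over cGAMP (SE 0.36, adjusted p = 9.14e-14) and 0.86 over Zymosan. It stood above both singles without overlap but under the fold threshold for Zymosan. Ak4, an adenylate kinase, was at 106, 154 and 82.3 CPM in the pair, 82.8, 89.6 and 74.6 with Zymosan and 9.17, 5.84 and 12.3 with cGAMP. Gm7120 had 1 count with cGAMP and 53 in the pair, a ratio of 48.4 (counting interval 8.32 to 1950). Eif4ebp1, a repressor of translation, was at 67.8 to 109 CPM in the pair, 129 to 154 with Zymosan and 5.84 to 12.3 with cGAMP. Gem and Vasn had 2 counts each with cGAMP and 28 and 27 in the pair and lost their call in 3 of 13 alternatives.

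Of 10 tested oxidative stress genes driven by the factor Nrf2, 6 were lower than with Zymosan (6.86% of all genes; Hmox1, Gclm, Gclc, Srxn1, Txnrd1 and Slc7a11; median -1.30), 6 were higher than with cGAMP (3.14% of all genes; Hmox1, Gclm, Srxn1, Txnrd1, Slc7a11 and Sqstm1; median 1.33), and 1, Prdx1, was called above the midpoint (12.3% of all genes; list median 0.07). With library size alone 8 were lower than with Zymosan and 5 higher than with cGAMP, the call of Txnrd1 being lost. Hmox1, which breaks down heme, was at 571, 781 and 765 CPM in the pair, 1500, 1702 and 1768 with Zymosan, 211, 152 and 111 with cGAMP and 180.1 to 307 in Ctrl. Srxn1, which repairs peroxiredoxins, was at 212, 320.1 and 266 CPM in the pair, 902, 1062 and 961 with Zymosan, 101, 52.6 and 79.8 with cGAMP and 221 to 263 in Ctrl. Txnrd1, thioredoxin reductase, was at 710.2, 717 and 673 CPM in the pair, 1914, 2240 and 1973 with Zymosan, 358, 298 and 338 with cGAMP and 615 to 636 in Ctrl. No pair library of these 3 genes overlapped a single, and cGAMP alone was under Ctrl for Srxn1 and Txnrd1.

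**Figure D5:**
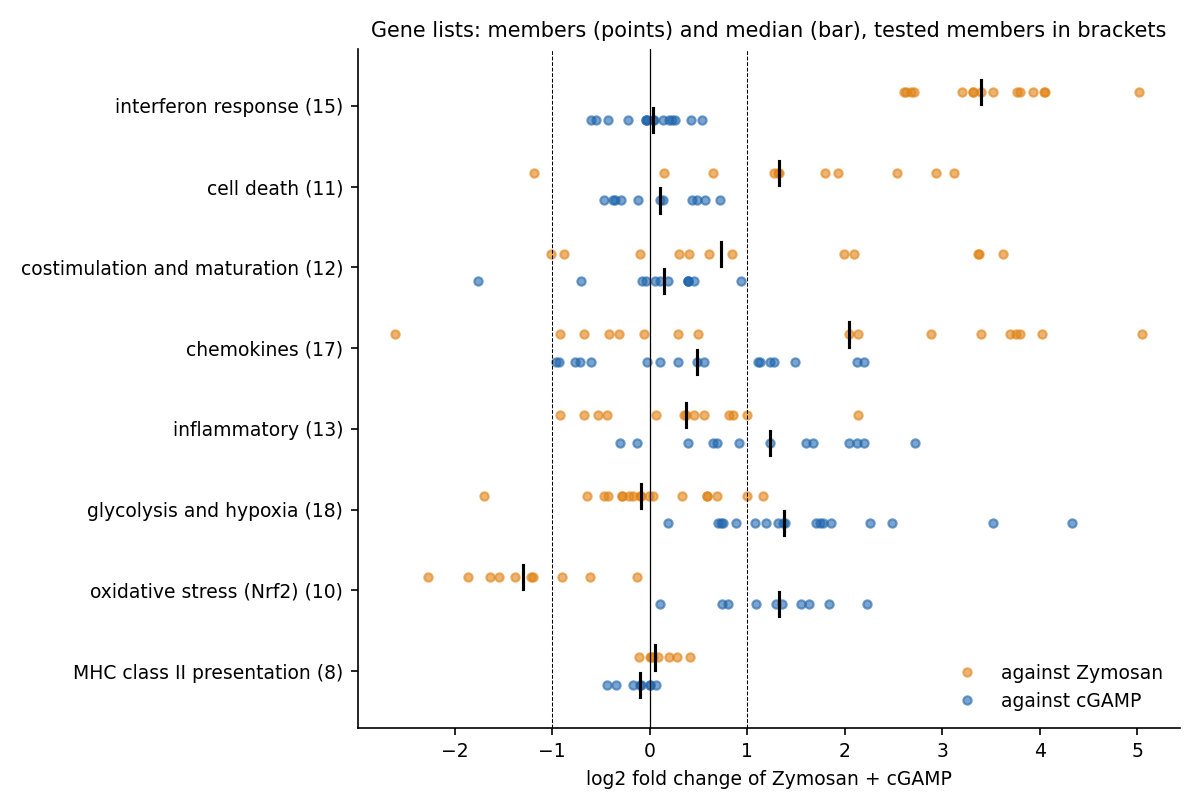
Log2 fold change of Zymosan_cGAMP (horizontal axis) against each single for the tested members (points) and the median of 8 gene lists (vertical axis). The interferon response list stands near 3.40 against Zymosan and near 0 against cGAMP, glycolysis and hypoxia near 0 and at 1.38, and the Nrf2 list on opposite sides of 0.

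The chemokines and inflammatory genes divided gene by gene, and of all genes 12.8% were higher than with Zymosan and 3.14% higher than with cGAMP. Of 17 tested chemokines, 9 were higher than with Zymosan (Ccl2, Ccl3, Ccl4, Ccl5, Ccl7, Ccl12, Cxcl9, Cxcl10 and Cxcl11) and Cxcl3 was lower, and 6 were higher than with cGAMP (Ccl3, Ccl4, Ccl22, Cxcl1, Cxcl2 and Cxcl3) and 0 lower. With library size alone the 6 were 3 (Ccl3, Cxcl1 and Cxcl2) and Cxcl1 was lower than with Zymosan, and with library size alone or RLE factors Ccl2 was lower than with cGAMP. Ccl5, which attracts T cells, was at 18550, 16910 and 19330 CPM in the pair, 14130, 12210 and 12870 with cGAMP and 2267 to 2822 with Zymosan, only 0.48 over cGAMP. Cxcl2, which attracts neutrophils, was at 2408, 1984 and 2333 CPM in the pair, 3856, 3737 and 3196 with Zymosan and 486, 462 and 522 with cGAMP. Cxcl3, of the same family, was at 261, 275 and 286 CPM in the pair, 1914, 1497 and 1670 with Zymosan and 138, 117 and 92.1 with cGAMP, a log2 change of -2.61 from Zymosan (SE 0.26, adjusted p = 1.82e-18). Both neutrophil chemokines lay between the singles without overlap. Ccl2, which attracts monocytes, was at 179.6, 141 and 174 CPM in the pair, 339, 304 and 325 with cGAMP and 27.6 to 46.7 with Zymosan, -0.96 from cGAMP and so just under the fold threshold.

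Of 13 tested inflammatory genes, 6 were higher than with cGAMP (3.14% of all genes; Tnf, Il1a, Cxcl1, Cxcl2, Ccl3 and Ptgs2; median 1.23) and 1, Ccl3, was higher than with Zymosan (median 0.37), which is no more than the 12.8% of all genes. Tnf, just under the fold threshold over Zymosan, gained that call in 7 of 15 alternatives. Il1b, an inflammatory cytokine, was at 645, 723 and 605 CPM in the pair, 893, 928 and 858 with Zymosan and 449, 309.7 and 307 with cGAMP, between the singles without overlap and not called against either. Il6, another, was at 220.4, 314 and 300 CPM in the pair, 138 to 166 with Zymosan and 147 to 221 with cGAMP, not called (0.85 and 0.65). Ptgs2, the inducible cyclooxygenase, was at 123, 179 and 194 CPM in the pair, 115 to 154 with Zymosan and 36.7 to 46.7 with cGAMP, overlapping Zymosan. Il12b had 7 counts in the pair and Il10 2, too few to show a difference at this depth.

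Receptors and signal carriers are set beside the share of all genes called, 19.7% against Zymosan and 3.92% against cGAMP. Of 16 tested genes of zymosan recognition, Myd88 was higher than with Zymosan and Tlr1 (whose libraries overlapped) and Clec4n lower, and Clec4e and Malt1 were higher than with cGAMP. With library size alone Clec4e lost its call and Plcg2 was lower than with cGAMP, and with library size alone or RLE factors Cd14 was lower than with Zymosan. Clec7a, the receptor Dectin-1, was at 669, 640.1 and 445 CPM in the pair, 745, 787 and 746 with Zymosan and 614, 619 and 743 with cGAMP, not called against either. Of 13 tested genes of STING and interferon signalling, 3 were higher than with Zymosan, among them Ifnb1 and Stat2, and Ifnar1 was lower, and Ifnb1 was the 1 called against cGAMP, a call lost with library size alone. Tlr2, a receptor for yeast and bacterial lipids, was at 242 to 286 CPM in the pair, 184 to 224 with Zymosan and 221 to 348 with cGAMP. Tmem173, the gene of STING, was at 8.16, 19.2 and 53.2 CPM in the pair and 64.2, 58.4 and 73.7 with cGAMP, not called (adjusted p = 0.262).

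The smaller lists are read against the same shares, 19.7% and 3.92%, and 3 of 15 feedback inhibitors called against Zymosan is near the first of these. Nos2, Slc7a2, Gch1 and Irg1 of 5 tested arginine, nitric oxide and itaconate genes were higher than with Zymosan (2 of them with library size alone), and Nos2 was higher than with cGAMP, a call lost in 6 of 13 alternatives. Slc7a2, an arginine transporter, was at 1094, 1082 and 1084 CPM in the pair, 825, 649 and 614 with cGAMP and 506, 563 and 439 with Zymosan. Of 15 tested feedback inhibitors, Socs1 was higher than with Zymosan and Tnip3 and Irak3 lower, and Il1rn and Zc3h12a were higher than with cGAMP and Tnip3 lower. Zc3h12a lost its call with library size alone and with RLE factors, and Tnip1 was lower than with Zymosan with library size alone. Of 7 tested prostaglandin and leukotriene enzymes, Ptgs1 was lower than with Zymosan and Ptgs2 higher than with cGAMP. Of 4 tested NFAT and Egr targets, Egr2 was lower than with Zymosan (-1.51, adjusted p = 0.00139) and 0 were called against cGAMP.

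The largest falls from Zymosan were in genes that were also low with cGAMP. Eid3 had 0 counts in the pair and with cGAMP and was at 64.4, 57.6 and 32.7 CPM with Zymosan, so the pair was at least 7.76-fold lower at the floor of 3 counts over the group. Scd2, a fatty acid desaturase, was at 8.16, 19.2 and 9.68 CPM in the pair, 18.3, 23.4 and 12.3 with cGAMP and 138, 102 and 159 with Zymosan. Tmcc1 had 1 count in the pair and 27 with Zymosan, a ratio of 0.0366 (counting interval 0.000893 to 0.222), and Slc39a14, a metal transporter, had 1 and 25, a ratio of 0.0395 (0.000962 to 0.241). Fosl2, a subunit of AP-1, was at 16.3, 19.2 and 29.0 CPM in the pair, 64.2, 35.1 and 49.1 with cGAMP and 212, 147 and 163 with Zymosan, on the cGAMP side of the midpoint (-1.96, adjusted p = 6.88e-05), as were Scd2, Rrn3 (4.84 to 19.2 CPM in the pair) and Kcnq1ot1 (12.8 to 16.3 CPM), which lost that call in 4, 1 and 6 of 18 alternatives. The pair libraries of Fosl2 lay below those of both singles, though the change from cGAMP was not called (-1.05, adjusted p = 0.26). The largest falls from cGAMP were in Tep1, Mknk1, Npepl1 and Cebpd, with 6 to 8 counts each in the pair. Tep1 was at 0, 12.8 and 29.0 CPM in the pair and 73.4, 99.3 and 61.4 with cGAMP (-2.22, SE 0.56, adjusted p = 0.00348), without overlap, and lost its call in 1 of 15 alternatives, Npepl1 in 3 of 15, Mknk1 in 6 of 14 and Cebpd in 7 of 13.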

How the data were processed

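The deposited values are counts of molecular identifiers per gene, made by the authors for 64 groups of 3 libraries. Per the submitters' processing notes, BWA 0.7.15 and mm10 were used. The annotation, the collapsing of identifiers and the treatment of reads that map to several places are not given in the sources used here. Libraries were grouped by their labels.

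One edgeR (4.0.16, limma 3.58.1, R 4.3.3) quasi-likelihood model with 1 coefficient per group, TMM scaling and filterByExpr was fitted to all libraries of the series. It tested 4720 of 23481 genes, which held 95.7% of counts, with 128 residual degrees of freedom and a common biological coefficient of variation of 10.3%. P-values were adjusted by Benjamini-Hochberg over all tested genes in each contrast, and the standard error is the log2 fold change divided by the root of F. CPM (counts scaled to the total over tested genes) use TMM factors, which were 0.96 to 0.9824 in the pair, 1.062 to 1.076 with cGAMP, 1.139 to 1.169 with Zymosan and 1.265 to 1.268 in Ctrl. Counting intervals are exact at 95% and, like the floor of 3 counts, cover counting error only. Replicates of a group differed beyond sampling noise.

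The members and lists were chosen with earlier results of these data known. Named genes were those above or below both singles (in full for the first 12 by size, and others added after their values were seen), the 8 largest rises and 4 largest falls against each single (at least 50 CPM, no overlap), the 4 genes farthest from the midpoint in each class, the 4 interaction calls of smallest p in each direction, and list members, of which some were picked as examples after their values were seen. Motif shares outside the genes above both singles were also added after seeing the data. Alternatives were RLE factors, library size alone, no filter, DESeq2 1.42.0, only the groups compared, thinning to equal totals, a replicate block, no fold threshold and leaving out each library. Some genes of the lists are not reported here by name. Drawing used Python 3.11.15 and matplotlib 3.10.9.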

Additional observations from a re-analysis of the deposited data

Results flagged for a closer look

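The interaction (pair minus both singles plus Ctrl, on the log2 scale) asks whether the effect of one ligand differs with and without the other. By edgeR's quasi-likelihood test it was positive for 8 genes (0.169%) and negative for 43 (0.911%). Without Ctrl replicate 3 the positive calls were 3, and without Ctrl replicate 1 the negative calls were 24. With RLE factors, and with only the groups compared in the fit, the positive calls were more, with counts given below. Of the 33 genes above both singles, 1 had a positive call and 0 a negative one, and their median interaction was 0.6 (all genes -0.0214). Tnf, Tlr2 and St3gal5 below are given because they are named elsewhere, and the others had the smallest adjusted p.

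Among positive calls, Arhgap25, a regulator of Rac, was at 540.2, 462 and 557 CPM in Ctrl, 64.4, 154 and 257 with Zymosan, 73.4, 81.8 and 49.1 with cGAMP and 123, 173 and 174 in the pair (interaction 2.81, SE 0.41, adjusted p = 8e-08). Each ligand alone went with a level far below Ctrl, and the pair libraries lay above those with cGAMP and within the range of those with Zymosan. Ehd4, of membrane recycling, was at 106 to 162 CPM in Ctrl, 42.0 to 46.0 with Zymosan, 101 to 147 with cGAMP and 165 to 212 in the pair (2.21, SE 0.48). Zfp36l2, which destabilises mRNA, was at 274 to 336 CPM in Ctrl, 145 to 173 with Zymosan, 252 to 316 with cGAMP and 416 to 474 in the pair (1.64, SE 0.37), and lost its call without Ctrl replicate 3 (adjusted p = 0.0548). Cd300lb, a receptor of myeloid cells, was at 237 to 332 CPM in Ctrl, 117 to 218 with Zymosan, 6.14 to 11.7 with cGAMP and 51.2 to 57.1 in the pair (3.34, SE 0.77), and lost its call when libraries were thinned (0.383). St3gal5, a sialyltransferase, had a value of 1.60 (adjusted p = 0.0303).

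Among negative calls, the pair was below the sum of both log2 effects. Clec4e, the lectin Mincle, was at 346 to 462 CPM in Ctrl, 2459 to 2803 with Zymosan, 976 to 1210 with cGAMP and 2093 to 2514 in the pair (-1.72, SE 0.20, adjusted p = 2.38e-12). Irg1, the itaconate synthase gene, was at 365 to 474 CPM in Ctrl, 1008 to 1427 with Zymosan, 3222 to 4246 with cGAMP and 3510 to 3879 in the pair (-1.45, SE 0.20). Sod2, the mitochondrial superoxide dismutase, was at 374 to 524 CPM in Ctrl, 1337 to 1417 CPM with Zymosan, 719 to 847 with cGAMP and 871 to 1074 in the pair (-1.35, SE 0.18). H2-M2 was at 134 to 166 CPM in Ctrl, 479.9 to 690.2 CPM with Zymosan, 534 to 624 with cGAMP and 474 to 571 in the pair (-2.14, SE 0.31), so each single and the pair overlapped. Tnf (-1.04, adjusted p = 0.00674) and Tlr2 (-1.48, adjusted p = 0.0349) were negative as well. A sum of log2 effects is a product of fold changes, so a negative value need not mean a lower level. Every Tnf library of the pair was above every single library.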

How the results depend on the processing

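Alternatives were run for the genes picked by rule and 24 list members, and no call among them changed sign. Estimates that were not called did so for H2-Ab1, Il12b, Il10, Ifit1, Irf7, Cd40 and Tlr2, and the balance of higher and lower calls against Zymosan turned with library size alone (487 higher, 565 lower). Counts that moved by over 1.5 times are given here, with the range over leaving out each library. The pair against Zymosan gave 605 higher (532 to 652) and 324 lower (250 to 296; 565 with library size alone, 189 with DESeq2). The pair against cGAMP gave 148 higher (109 to 132; 94 thinned) and 37 lower (21 to 34; 67 with library size alone, 16 without a filter and with DESeq2, 58 with library size alone relative to the median, 65 without a fold threshold). Zymosan against cGAMP gave 417 higher (336 to 400; 250 with DESeq2) and 581 lower (531 to 616). The pair against Ctrl gave 754 higher (692 to 769; 438 with only the groups compared) and 440 lower (298 to 379; 873 with library size alone, 265 without a filter, 280 with DESeq2, 240 with only the groups compared). Zymosan against Ctrl gave 209 higher (157 to 216; 124 with DESeq2, 131 with only the groups compared, 136 thinned) and 86 lower (45 to 66; 138 with RLE factors and with library size alone, 31 without a filter, 55 thinned). For cGAMP against Ctrl the counts were 551 higher (504 to 567; 352 with only the groups compared) and 279 lower (195 to 240; 484 with library size alone, 177 without a filter, 184 with DESeq2, 128 with only the groups compared). Above both singles were 33 (19 to 33; 17 with DESeq2, 15 thinned, 64 without a fold threshold), and below both 4 (1 to 4; 12 with library size alone, 1 without a filter, 2 with DESeq2, 10 with only the groups compared, with library size alone relative to the median and without a fold threshold). Of genes higher with cGAMP, 314 lay nearer cGAMP (266 to 330) and 0 nearer Zymosan (0 to 2; 2 with only the groups compared, 3 with library size alone relative to the median). Of genes higher with Zymosan, 24 lay nearer cGAMP (12 to 24; 56 with library size alone, 12 without a filter, 41 with library size alone relative to the median) and 41 nearer Zymosan (31 to 40; 29 with library size alone, 26 thinned, 25 with library size alone relative to the median). The interaction was positive for 8 (3 to 8; 17 with RLE factors, as such and relative to the median, 4 without a filter, 24 with only the groups compared) and negative for 43 (24 to 52; 27 with DESeq2, 18 thinned). With HMW, 21 were above both (12 to 20; 8 with library size alone) and 1 below both (0 to 1; 3 with library size alone, 2 with only the groups compared and with library size alone relative to the median). The cause of these moves was not tested.

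Library size alone moved the median of all genes by -0.241 against Zymosan and -0.138 against cGAMP. The alternatives relative to the median were chosen after seeing the data. Same-numbered libraries did not deviate together (r -0.0261 to 0.0185). Replicates of these 4 groups differed little beyond counting noise (chi-square over degrees of freedom 1.11 to 1.44). Such r values would be small with or without pairing, so they cannot show whether the numbers pair the samples. With a replicate block the counts were 609 and 330 against Zymosan, 152 and 38 against cGAMP, 34 above both and 4 below both, 317, 0, 25 and 43 around the midpoint, 9 and 45 for the interaction, and 21 and 1 with HMW. Depth limits genes at low levels: 4720 of 23481 genes could be tested.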
